A study of Mus musculus with 12 samples.

Results

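Chromatin accessibility was described at 10 genes of glycogen metabolism: Ppp1r3a, Ppp1r3b, Ppp1r3c, Ppp1r3d, Gys1, Gys2, Ugp2, Gbe1, Pygl and Pygb. The regions described were all accessible regions (peaks) to which the deposited tables assign 1 of these gene symbols. This gave 64 of 58558 peaks in brown adipose tissue (BAT) and 41 of 39558 peaks in inguinal white adipose tissue (iWAT). Peaks were taken by symbol and not by their measured signal, but the genes themselves were chosen with earlier results of these data known. Ppp1r3a had no peak in BAT, so that the BAT peaks belonged to 9 genes, while all 10 genes had at least 1 peak in iWAT. A peak was assigned by the table's symbol only, and the midpoint of the farthest one lay 186 kb from the start of its gene in BAT and 255 kb in iWAT, so an assigned gene is not shown to be the one that a distal peak acts on.

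Glycogen is the branched glucose polymer that cells store and break down again as needed. UDP-glucose pyrophosphorylase (Ugp2) makes the glucose donor, glycogen synthase (Gys1, and Gys2 as the form best known from liver) extends the chains, the branching enzyme (Gbe1) adds branch points, and glycogen phosphorylase (Pygl and Pygb) releases glucose 1-phosphate. The Ppp1r3 genes encode subunits that bring protein phosphatase 1 to the glycogen particle, where it dephosphorylates synthase towards its active state and phosphorylase towards its inactive one. Adipocytes hold little glycogen compared with liver or muscle, and their stores turn over with feeding and cold.

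The study used ATAC-seq, in which a transposase cuts and tags open DNA, to compare mice with floxed alleles of BAF60a (Smarcd1), a subunit of SWI/SNF chromatin remodelers, with adipocyte-specific knockout mice. All mice were C57BL/6. The flox group carried floxed alleles without Cre, and the AKO group carried the same alleles with an Adiponectin-Cre transgene, which is active in adipocytes, so other cells of the tissue kept the gene. BAT came from 3 flox and 3 AKO mice, 1 mouse per sample. iWAT came from cold-acclimated mice, whose fat pads were pooled by genotype and divided into 3 aliquots of 1 flox pool and 3 aliquots of 1 AKO pool. Tests in iWAT therefore measure the spread between aliquots and not between mice. Age was not given in the sample labels.

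Values are normalized reads, meaning the read number of a peak after scaling for the depth of its sample, and are given as mean ± SD of 3 samples where not given singly. Undoing this scaling gave whole reads, and reads in peaks ranged from 6336670 to 27500738 in BAT and from 4066720 to 6691161 in iWAT. At the targeted gene, the BAT peak of Smarcd1 at chr15:99704113-99704521 held 136, 201 and 185 normalized reads in flox replicates 1 to 3 and 23.7, 57.9 and 26.9 in AKO replicates 1 to 3. No such peak was listed in iWAT, where the only Smarcd1 peak, over its start site, overlapped between the genotypes. All 7 adipocyte genes and all 7 brown adipocyte genes of the marker lists had peaks in both tissues. In BAT, AKO replicate 2 had the fewest reads and the highest score on principal component 1 (PC1, 55.6% of the variance). Flox replicate 1 had the most reads and the lowest score. PC1 scores were −98.2, −41.8 and 14.6 in flox replicates 1 to 3 and −0.617, 112 and 13.5 in AKO replicates 1 to 3. Flox replicates 1 and 2 thus lay below all AKO mice, while flox replicate 3 lay above AKO replicates 1 and 3. In bulk tissue, fewer cells of a type and less accessibility per cell cannot be told apart.

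Over all their peaks, the glycogen genes held a smaller part of the reads in AKO than in flox BAT. Per 1000000 reads in peaks, 1569, 1543 and 1567 fell into glycogen gene peaks in flox replicates 1 to 3, against 1416, 1333 and 1418 in AKO replicates 1 to 3. The genotypes did not overlap. In iWAT the same quantity was 951, 933 and 978 in the flox aliquots and 1012, 999 and 975 in the AKO aliquots, where AKO replicate 3 lay below flox replicate 3. No test was run on this sum over chosen members. AKO replicate 2 had the lowest normalized reads of the 6 BAT samples at 28 of the 64 peaks (43.8%), against 28.9% of all BAT peaks.

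**Figure D1:**
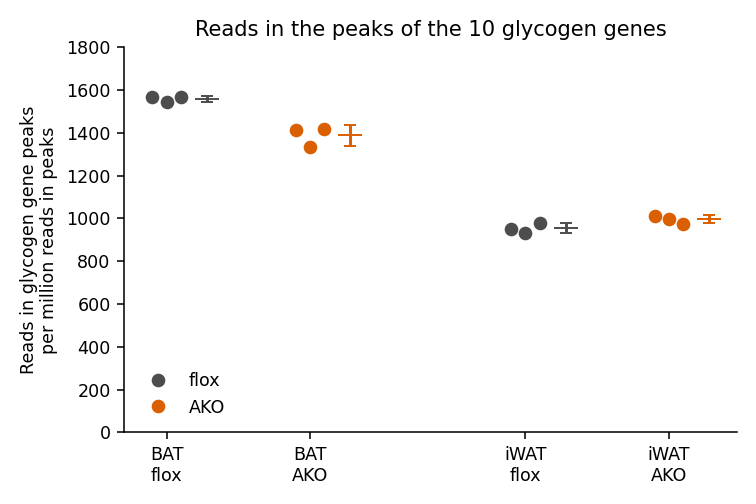
Reads in the peaks of the 10 glycogen genes per 1000000 reads in all peaks (vertical axis, from 0) for each sample of BAT and iWAT, by genotype. Points are samples, and the horizontal mark with its bar is the mean and SD (n = 3). The 3 AKO values in BAT (mean 1389, SD 48.8) lie below the 3 flox values (mean 1559, SD 14.5), while flox (mean 954, SD 22.7) and AKO (mean 995, SD 18.8) overlap in iWAT.

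Peak by peak, accessibility was compared with limma on log2(normalized reads + 1) over all peaks of each table, adjusted by Benjamini-Hochberg and called under 0.1. As in the study, the PC1 score was a covariate in BAT and not in iWAT. Because BAT scores were partly apart by genotype, with overlap, this covariate can take up part of a genotype difference. A fitted log2 fold change in BAT can therefore differ in size or direction from what the mean reads give. None of the 64 BAT and none of the 41 iWAT peaks of the glycogen genes was called, and neither was any other peak of either table (0.0% of all peaks). The smallest adjusted p of a glycogen gene peak was 0.427 in BAT and 0.231 in iWAT. Over all peaks the smallest was 0.269 in BAT and 0.149 in iWAT. The former belonged to the Smarcd1 peak given above (log2 fold change −2.98, SE 0.265), so even this peak of the targeted gene was not called. In BAT, 8 of the 64 peaks were lower in AKO at an unadjusted p under 0.05, where 5.59% of all peaks were, and 0 were higher, where 3.46% of all peaks were. Without the PC1 covariate, 8 were lower and 3 were higher at that level. The shares of all peaks above are from the fit with the covariate and were not computed without it. In iWAT, 2 of 41 were lower and 3 were higher at that level, against 7.42% and 7.61% of all peaks.

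A peak counted as free of overlap when the ranges of the 3 flox and the 3 AKO values did not meet. In BAT, 16 of the 64 glycogen gene peaks (25.0%) were lower in AKO without overlap, compared with 8.84% of all peaks, and 1 was higher, compared with 8.77% of all peaks. In iWAT, 4 of 41 were lower (10.3% of all peaks) and 5 were higher (10.6% of all peaks), close to the background in both directions. The median log2 fold change of the glycogen gene peaks was −0.05 in BAT (43 of 64 below 0), against 0.01 over all peaks, and 0.02 in iWAT (19 of 41 below 0), against 0.00 over all peaks. Without the PC1 covariate the BAT median was −0.16, against −0.01 over all peaks. With AKO replicate 2 left out and no covariate it was −0.13. Without that sample, 20 of the 64 peaks were lower and 2 higher without overlap, against 12.9% and 11.4% of all peaks.

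Count models were run on the recovered reads with the same designs. Over all peaks DESeq2 called 174 in BAT and 420 in iWAT, and edgeR 84 and 1846. In BAT, DESeq2 called the start site peak of Ppp1r3b as lower in AKO (adjusted p = 0.0997), among 0.217% of all peaks called lower, while it gave no adjusted p for 13 glycogen gene peaks, and edgeR called 0 of the 64. In iWAT, edgeR called the start site peak of Pygl as higher in AKO (adjusted p = 0.0730), among 2.15% of all peaks called higher, and DESeq2 called 0.

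**Figure D2:**
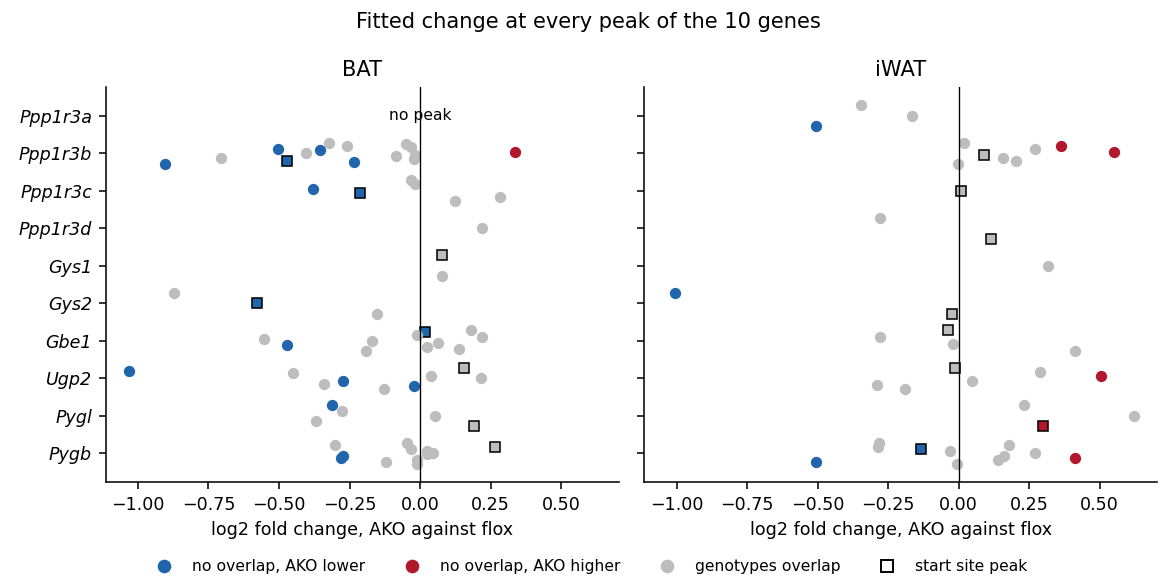
Fitted log2 fold change (horizontal axis, AKO against flox, limma on log2(normalized reads + 1)) of every peak of the 10 genes (rows) in BAT and iWAT, each point being 1 peak and each square a peak over a start site. Blue and red mark peaks whose genotypes do not overlap, grey those that do. In BAT 16 peaks are blue and 1 is red, with 43 of 64 to the left of 0, while iWAT has 4 blue and 5 red peaks.

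Accessibility over the start sites, given per kb of peak so that genes can be compared, was highest at Gbe1 in both tissues among peaks that carry the symbol of a glycogen gene. In flox BAT it was 1115 ± 152 normalized reads per kb at Gbe1 and 904 ± 174 at Gys1 (SD, n = 3 mice), followed by Ppp1r3c (643 ± 25.1), Ppp1r3b (574 ± 29.3), Pygl (505 ± 100), Pygb (450 ± 13.1), Ugp2 (413 ± 46.6) and Gys2 (377 ± 15.8). Only Gys1 and Ppp1r3c, and Ppp1r3c and Ppp1r3b, did not overlap as neighbours in this order. In flox iWAT, Gbe1 (538 ± 27.8, n = 3 aliquots) was followed by Ugp2 (348 ± 31.8), Pygb (269 ± 17.7), Ppp1r3c (242 ± 42.3), Ppp1r3b (229 ± 10.96), Pygl (179 ± 16.9), Ppp1r3d (161 ± 6.60) and Gys2 (151 ± 19.5). Neighbours were apart between Gbe1 and Ugp2, Ugp2 and Pygb, and Ppp1r3b and Pygl. Gys2 was lowest among these start site peaks in each tissue. Start sites under a neighbour's symbol are not in this order. The Gys1 start in iWAT, under Ruvbl2, held 519 ± 55.3 per kb and overlapped with Gbe1, and the Ppp1r3d start in BAT, under Fam217b, held 766 ± 132. The tables were normalized separately, so levels were not compared between BAT and iWAT. These start site peaks were also wider and stronger than the other glycogen gene peaks, with a median of 540 against 258 normalized reads per kb in flox BAT and 236 against 164 in flox iWAT.

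Among the phosphatase-targeting subunits, Ppp1r3b, which encodes the subunit best known from liver, carried the most peaks in BAT. Of its 15 BAT peaks, 14 had a log2 fold change below 0 with the PC1 covariate and 11 without it, and the AKO mean was the lower one at 11. With the covariate, 49.1% of all BAT peaks were below 0. Some of the 14 lay close to 0 for their SE, the closest at −0.018 (SE 0.266). Without overlap, 5 of 15 were lower and 1 was higher in AKO, against 8.84% and 8.77% of all BAT peaks. The start site peak at chr8:35375226-35378615 also overlaps a second annotated gene, Gm45469, and reads of both genes cannot be told apart. It held 2058, 1867 and 1916 normalized reads in flox replicates 1 to 3 and 1342, 1254 and 1381 in AKO replicates 1 to 3. All 3 AKO mice lay below all 3 flox mice, with a difference of the means of −31.9% and a log2 fold change of −0.47 (SE 0.172, limma adjusted p = 0.522). It was the glycogen gene peak that DESeq2 called.

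Some distal peaks of Ppp1r3b in BAT showed differences of like size, while others were near 0. A peak 164 kb upstream, at chr8:35211416-35212354, held 538, 585 and 643 normalized reads in the flox and 425, 346 and 438 in AKO mice (log2 fold change −0.50, SE 0.211, limma adjusted p = 0.550), and its log2 fold change was −0.25 when flox replicate 3 was left out. A second one, 158 kb upstream at chr8:35217471-35218779 within the annotated transcript Gm34474, held 850, 786 and 824 in flox and 641, 576 and 614 in AKO mice (log2 fold change −0.36, SE 0.173). The peak with the smallest p of any glycogen gene lay 56.7 kb downstream of the start, at chr8:35432296-35432627. It held 91.4, 99.02 and 131 in flox and 67.0, 90.8 and 63.3 in AKO mice, with a log2 fold change of −0.90 (SE 0.180, limma adjusted p = 0.427), which was −0.53 without the PC1 covariate. At none of these 3 peaks did the genotypes overlap, although AKO replicate 2 lay only just under flox replicate 1 at the downstream peak. The 1 higher peak without overlap, 149 kb upstream, held 53.5 ± 1.25 in flox and 78.1 ± 17.7 in AKO mice.

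In iWAT, 7 of the 8 Ppp1r3b peaks had a log2 fold change above 0, while 50.1% of all iWAT peaks were below 0. Some of the 7 lay close to 0 for their SE, the closest at 0.019 (SE 0.259). At the start site the aliquots overlapped, with 345 ± 16.5 normalized reads in the flox and 368 ± 13.8 in AKO (log2 fold change 0.09). The peak 157 kb upstream at chr8:35218345-35218663 lies inside the BAT peak of the same place and held 69.1, 52.3 and 80.9 in the flox and 94.5, 103 and 96.2 in the AKO aliquots. Every AKO aliquot was higher (log2 fold change 0.55, SE 0.180, limma adjusted p = 0.231). The same was true 169 kb upstream at chr8:35206398-35206650, with 43.5 ± 5.14 in flox and 55.9 ± 3.54 in AKO (log2 fold change 0.36, SE 0.144, limma adjusted p = 0.302). Summed over all Ppp1r3b peaks, BAT held 5745 ± 179 normalized reads in the flox and 4477 ± 137 in AKO mice, and iWAT held 670 ± 39.2 in flox and 761 ± 21.0 in AKO aliquots, without overlap in either tissue. Sums over all peaks of the BAT table also ran lower in AKO, with overlap. They ran from 1.31e+07 to 1.44e+07 in flox and from 1.22e+07 to 1.33e+07 in AKO mice.

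**Figure D3:**
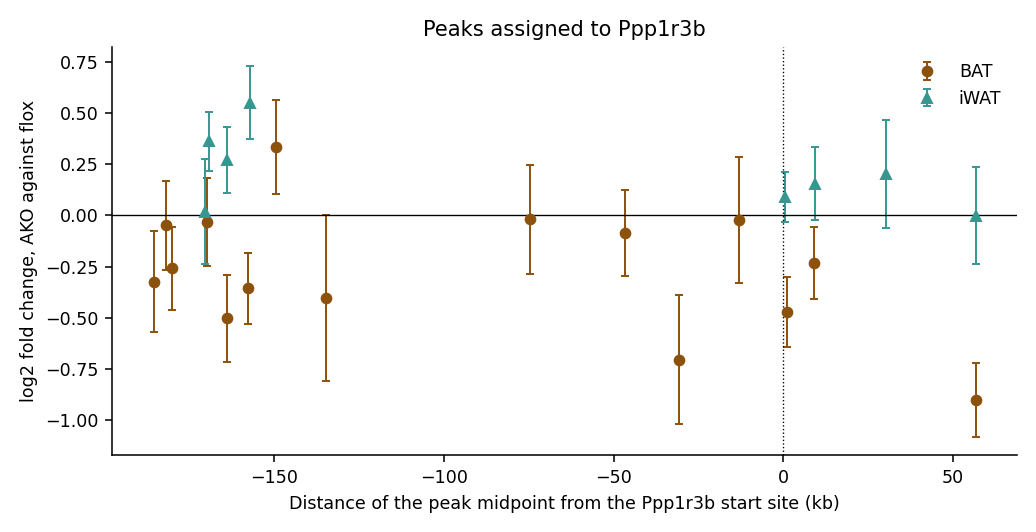
Log2 fold change (AKO against flox, vertical axis, bars are SE from limma) of each peak assigned to Ppp1r3b by the distance of its midpoint from the start site in kb (horizontal axis, negative upstream). The BAT fit has the PC1 covariate. Of the 15 BAT peaks (circles), 14 lie below 0 (11 in a fit without it), and of the 8 iWAT peaks (triangles), 7 lie above 0. In both tissues some peaks lie close to 0 for their SE.

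Sequences are shown for the distal Ppp1r3b places with the smallest p in each tissue. Both are from the plus strand of GRCm38 (mm10), as the central 300 bases of the peak, and capitals mark letters that match a motif searched here. The BAT place covers chr8:35432312-35432611 and its capitals mark the C/EBP letters TTGCNNAA as read on the minus strand. The iWAT place covers chr8:35218355-35218654, and its capitals mark a PPAR response element, taken as 2 copies of AGGTCA 1 base apart with up to 3 mismatches.
Ppp1r3b, 56.7 kb downstream: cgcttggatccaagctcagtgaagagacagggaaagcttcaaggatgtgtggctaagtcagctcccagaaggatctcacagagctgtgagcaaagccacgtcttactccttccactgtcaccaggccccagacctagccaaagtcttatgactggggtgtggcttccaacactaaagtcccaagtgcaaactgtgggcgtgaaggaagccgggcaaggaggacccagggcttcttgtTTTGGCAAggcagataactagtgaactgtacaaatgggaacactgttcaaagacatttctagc
Ppp1r3b, 157 kb upstream: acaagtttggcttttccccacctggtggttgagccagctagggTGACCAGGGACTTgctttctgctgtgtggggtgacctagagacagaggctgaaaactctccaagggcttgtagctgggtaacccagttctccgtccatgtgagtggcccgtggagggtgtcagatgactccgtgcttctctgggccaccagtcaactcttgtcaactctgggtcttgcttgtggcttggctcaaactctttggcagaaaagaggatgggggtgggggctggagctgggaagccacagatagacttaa

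Ppp1r3c, whose product PTG is the targeting subunit widely expressed in fat, had 6 peaks in BAT and 1 in iWAT. Its BAT start site peak at chr19:36736448-36737410 held 612, 646 and 599 normalized reads in the flox and 516, 421 and 524 in AKO mice. AKO was lower without overlap, by a difference of the means of −21.3% (log2 fold change −0.21, SE 0.183, limma adjusted p = 0.759). A peak in its intron 1 was also lower without overlap, with 178 ± 20.1 in flox and 144 ± 8.28 in AKO mice. In iWAT the start site peak held 197 ± 34.4 in flox and 197 ± 22.2 in AKO aliquots.

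Ppp1r3d, another targeting subunit, had 1 BAT peak over exon 1, and the genotypes overlapped there (1415 ± 249 in flox and 1264 ± 322 in AKO mice). The BAT peak over its start site carries the symbol of the neighbouring Fam217b and was therefore no member. The 2 iWAT peaks of Ppp1r3d also overlapped between genotypes, with 388 ± 15.9 in flox and 421 ± 37.0 in AKO aliquots at the start site and 82.2 ± 21.6 and 66.3 ± 7.39 at the other. For Ppp1r3a, which encodes the subunit of striated muscle, neither table listed a peak over the start site. Its 3 iWAT peaks lay at least 114 kb from the start, each with a log2 fold change below 0. The one with the smallest p held 37.1, 37.8 and 36.2 in the flox and 35.7, 17.1 and 27.8 in the AKO aliquots, AKO being lower without overlap but with AKO replicate 1 close to the flox aliquots. Its log2 fold change was −0.51, and −0.22 when AKO replicate 2 was left out. Of the 7 skeletal muscle markers, 3 had a peak in BAT and 2 in iWAT.

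Of the glycogen synthase genes, Gys2 separated the genotypes at its BAT start site and Gys1 did not. The Gys2 start site peak in BAT, chr6:142472623-142473773, held 436, 452 and 415 normalized reads in the flox and 268, 309 and 313 in AKO mice. All AKO mice lay below all flox mice, with a difference of the means of −31.7% and a log2 fold change of −0.58 (SE 0.186, limma adjusted p = 0.489). In iWAT the same start site overlapped between genotypes, at 75.1 ± 9.70 in flox and 73.4 ± 4.09 in AKO aliquots.

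A second Gys2 peak, in intron 11, had the lowest fitted value of all glycogen gene peaks in iWAT and the third lowest in BAT. In iWAT, at chr6:142446371-142446650, it held 34.9, 44.5 and 33.6 in the flox and 33.4, 13.7 and 12.8 in the AKO aliquots (log2 fold change −1.004, SE 0.346, limma adjusted p = 0.249). AKO was lower without overlap, yet AKO replicate 1 was hardly below flox replicate 3. In BAT, at chr6:142446291-142446695, it held 55.9, 87.2 and 111 in flox and 49.5, 73.4 and 67.2 in AKO mice, which overlapped, while the fit with PC1 gave −0.87 (SE 0.241, limma adjusted p = 0.466) and the fit without it −0.38. It was 1 of 9 places with a log2 fold change below 0 in both tissues. Over all Gys2 peaks, BAT held 601 ± 31.2 in flox and 447 ± 35.2 in AKO mice and iWAT 113 ± 6.73 and 93.4 ± 9.32, without overlap in either. Of the 4 liver markers, 1 had a peak in BAT and 2 in iWAT.

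The intron 11 place is printed because it was the lowest in iWAT. The run is the whole iWAT peak on the plus strand of GRCm38, chr6:142446371-142446650, with Gys2 annotated on the minus strand, and its capitals mark 3 matches to the PPAR response element, each with 3 mismatches.
Gys2, intron 11: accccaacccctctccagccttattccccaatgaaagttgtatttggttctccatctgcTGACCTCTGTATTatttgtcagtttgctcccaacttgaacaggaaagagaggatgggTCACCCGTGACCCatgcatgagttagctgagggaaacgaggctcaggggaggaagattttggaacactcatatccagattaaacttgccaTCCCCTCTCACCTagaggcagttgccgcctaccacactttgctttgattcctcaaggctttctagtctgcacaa

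The Gys1 start site peak in BAT also overlaps Ruvbl2, and reads of the neighbours cannot be told apart. It held 1394, 1162 and 946 in flox and 1027, 680 and 1030 in AKO mice, which overlapped. Its log2 fold change was 0.08 with the PC1 covariate and −0.36 without it. In iWAT the peak over the Gys1 start is assigned to Ruvbl2 in the table and held 411 ± 43.7 in flox and 430 ± 20.02 in AKO aliquots, while the 1 iWAT peak of Gys1, over exon 4, held 112 ± 21.2 and 139 ± 16.0, with overlap.

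**Figure D4:**
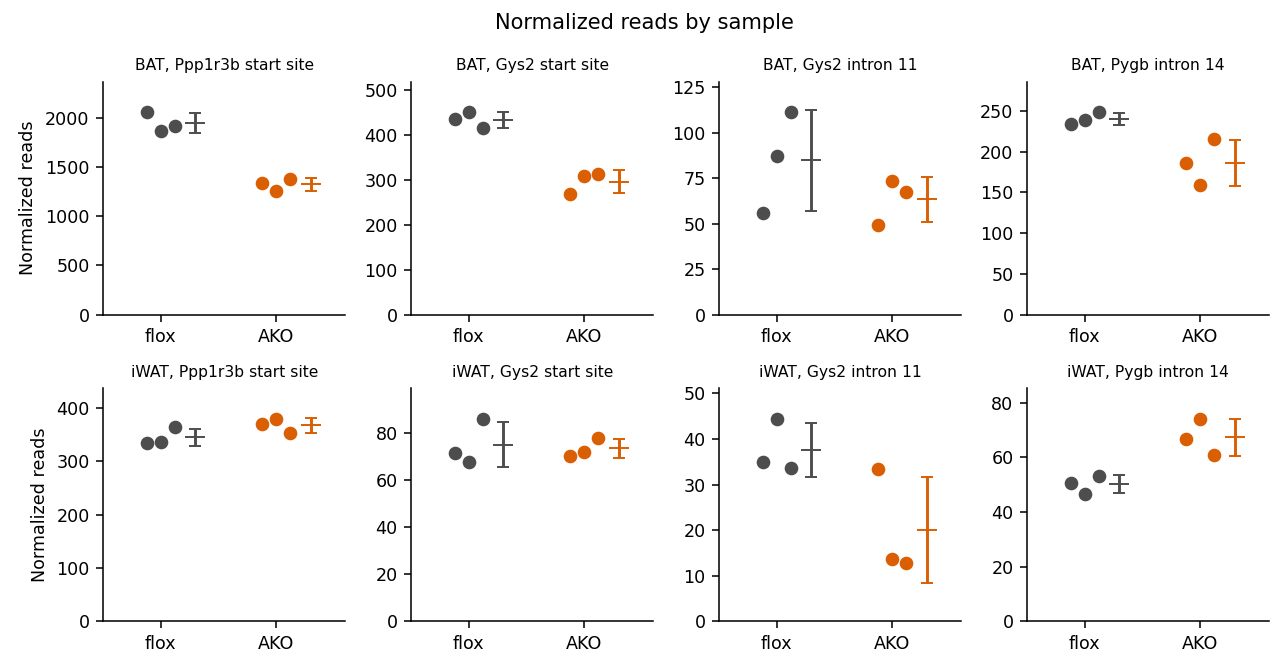
Normalized reads (vertical axes, from 0) in each sample at 4 places with a peak in both tissues, BAT above and iWAT below. Points are samples, and the mark with its bar is the mean and SD (n = 3). The start sites of Ppp1r3b (1947 against 1325) and Gys2 (434 against 297) are apart in BAT and overlap in iWAT, Gys2 intron 11 overlaps in BAT, and Pygb intron 14 is lower in AKO BAT and higher in AKO iWAT.

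Ugp2 and Gbe1, which supply the glucose donor and the branch points, were lower in sum in AKO BAT, where sums over all peaks also ran lower. Over the 9 Ugp2 peaks there were 1795 ± 137 normalized reads in the flox and 1517 ± 211 in AKO mice, and over the 11 Gbe1 peaks 2555 ± 205 and 2092 ± 246. Neither gene overlapped between genotypes, but for Ugp2 the highest AKO sum (1688) nearly touched the lowest flox sum (1689). In iWAT the sums overlapped, at 663 ± 47.3 and 664 ± 23.8 for Ugp2 and 630 ± 43.2 and 628 ± 19.3 for Gbe1. The Ugp2 start site overlapped between genotypes in BAT (761 ± 85.8 in flox, 689 ± 127 in AKO) and in iWAT (368 ± 33.6 and 364 ± 11.97).

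A small Ugp2 peak 16.5 kb upstream, chr11:21386812-21387127, had the lowest fitted value of the glycogen genes in BAT. It held 60.6, 54.7 and 77.6 in flox and 45.4, 40.6 and 24.0 in AKO mice, all AKO mice being lower (log2 fold change −1.03, SE 0.334, limma adjusted p = 0.489, and −0.64 when AKO replicate 3 was left out). No iWAT peak overlapped it. Another, 44.7 kb upstream, was higher without overlap in iWAT, with 39.4 ± 10.1 in flox and 55.7 ± 11.6 in AKO aliquots (log2 fold change 0.50, SE 0.238, limma adjusted p = 0.376, and 0.28 when flox replicate 2 was left out).

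At Gbe1, the start site peak in BAT held 1525, 1207 and 1221 in flox and 1164, 765 and 1203 in AKO mice. AKO was lower without overlap, with a difference of the means of −20.8%, but the fit with PC1 gave a log2 fold change of 0.02 (SE 0.196) and the fit without it −0.36, and AKO replicate 3 was close to flox replicate 2. A peak in intron 1, 37.9 kb from the start at chr16:70351717-70352254, did not depend on the covariate in this way. It held 440, 411 and 439 in flox and 296, 286 and 321 in AKO mice (log2 fold change −0.47, SE 0.177, limma adjusted p = 0.526), and −0.51 without the covariate. The overlapping iWAT peak had a log2 fold change of −0.02, and the iWAT start site peak held 463 ± 23.9 in flox and 451 ± 14.03 in AKO aliquots. The smallest p of Gbe1 in iWAT belonged to another intron 1 peak, with 28.1 ± 3.37 and 23.4 ± 5.97, which overlapped.

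The next lines give the Ugp2 and Gbe1 places with the smallest p in BAT, as the central 300 bases on the plus strand of GRCm38, chr11:21386820-21387119 and chr16:70351836-70352135. Neither holds letters of the motifs searched, so nothing is in capitals.
Ugp2, 16.5 kb upstream: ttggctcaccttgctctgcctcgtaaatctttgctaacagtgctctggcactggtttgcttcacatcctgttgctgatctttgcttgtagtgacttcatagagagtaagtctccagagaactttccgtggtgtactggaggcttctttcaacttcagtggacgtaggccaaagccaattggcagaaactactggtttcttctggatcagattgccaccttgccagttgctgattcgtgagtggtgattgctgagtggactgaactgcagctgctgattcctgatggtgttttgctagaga
Gbe1, intron 1: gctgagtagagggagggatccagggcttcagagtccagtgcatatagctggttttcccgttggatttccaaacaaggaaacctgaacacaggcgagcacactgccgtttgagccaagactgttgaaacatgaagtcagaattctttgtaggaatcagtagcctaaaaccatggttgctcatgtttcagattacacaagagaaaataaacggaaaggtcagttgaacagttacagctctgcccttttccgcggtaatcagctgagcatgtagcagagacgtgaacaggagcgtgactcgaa

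The phosphorylase genes, which act in glycogen breakdown, had the smallest differences of summed reads in BAT (−9.85% for Pygl and −5.69% for Pygb). Because sums over all BAT peaks also ran lower in AKO, a small drop in a gene's sum is not particular to that gene. Pygl, the form best known from liver, had 5 BAT peaks whose sum overlapped between genotypes (2079 ± 223 in flox and 1874 ± 153 in AKO mice). Its BAT start site peak held 1318 ± 262 in flox and 1191 ± 191 in AKO mice. The BAT peak with the smallest p, in intron 4, held 105 ± 26.9 and 105 ± 17.7, and its log2 fold change was −0.37 with and 0.02 without the PC1 covariate.

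In iWAT, all 3 Pygl peaks had a log2 fold change above 0. The start site peak, chr12:70225786-70227955, held 417, 347 and 400 in the flox and 499, 510 and 423 in the AKO aliquots. Every AKO aliquot was higher, by a difference of the means of 23.1% (log2 fold change 0.30, SE 0.146, limma adjusted p = 0.388), and this was the peak that edgeR called. The peak also covers F730035M05Rik, an annotated neighbour. In sum, the Pygl peaks held 452 ± 36.8 in flox and 558 ± 55.7 in AKO aliquots, without overlap.

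Pygb, the brain form that is also found in other tissues, had 12 BAT and 11 iWAT peaks, and its sums overlapped between genotypes in both tissues. The start site peak held 330 ± 9.58 in flox and 353 ± 52.8 in AKO BAT, with overlap, and 223 ± 14.7 and 203 ± 3.801 in iWAT, where AKO was lower without overlap (log2 fold change −0.13, SE 0.125, limma adjusted p = 0.661). The BAT peak with the smallest p, over exon 16, was lower without overlap, at 567 ± 29.7 and 471 ± 11.8. In iWAT, a peak 53.5 kb from the start and past the end of the gene, within Abhd12, held 66.3, 65.6 and 60.3 in the flox and 35.7, 46.8 and 53.5 in the AKO aliquots, AKO being lower (log2 fold change −0.51, SE 0.173, limma adjusted p = 0.246).

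In intron 14 of Pygb, the BAT and iWAT samples differed in direction. The BAT peak chr2:150822865-150823189 held 234, 239 and 248 in flox and 186, 158 and 215 in AKO mice, all AKO mice being lower (log2 fold change −0.27, SE 0.204, limma adjusted p = 0.721). The iWAT peak inside it, chr2:150822909-150823132, held 50.6, 46.7 and 53.4 in the flox and 66.9, 74.2 and 60.9 in the AKO aliquots, all AKO aliquots being higher (log2 fold change 0.41, SE 0.138, limma adjusted p = 0.237). Its sequence is the whole iWAT peak on the plus strand of GRCm38, on which Pygb is annotated. It holds 1 match, in capitals, to the C/EBP letters TTGCNNAA as read on the minus strand.
Pygb, intron 14: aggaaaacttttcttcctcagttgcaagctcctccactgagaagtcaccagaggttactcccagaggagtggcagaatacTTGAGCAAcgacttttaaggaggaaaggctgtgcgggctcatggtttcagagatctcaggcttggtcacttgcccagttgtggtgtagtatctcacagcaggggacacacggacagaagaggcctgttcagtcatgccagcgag

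Across both tissues, 35 pairs of overlapping peaks (at least 1 base) joined 32 BAT and 35 iWAT peaks of the glycogen genes. Among these pairs, 9 had log2 fold changes below 0 in both tissues, 8 above 0 in both, 13 below 0 in BAT and above 0 in iWAT, and 5 the reverse. These counts depended on the overlap required. With an overlap of at least 50% of both peaks, 19 pairs were left, of which 5 were below 0 in both tissues, 6 above 0 in both, 4 below 0 in BAT and above 0 in iWAT, and 4 the reverse. Of the 13 pairs, 6 belonged to Ppp1r3b, where 1 wide BAT peak was paired with 2 iWAT peaks, and none of these 6 was among the 19. The intron 14 place of Pygb and the Ppp1r3b place 158 kb upstream were lower in AKO BAT and higher in AKO iWAT without overlap in either tissue. Over all genes, pairs opposed without overlap, in this direction or the reverse, made up 1.47% of 31936 pairs. Of the Pygb and Ppp1r3b places, the one in Pygb met the stricter rule. No pair was free of overlap in the same direction in both tissues, but the share over all genes was not computed for this count. The tissues were normalized separately and iWAT holds aliquots, so the difference between tissues was not tested. Cold acclimation is described for iWAT only, and the tissues were sequenced on different instruments, so tissue, cold and run cannot be told apart.

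**Figure D5:**
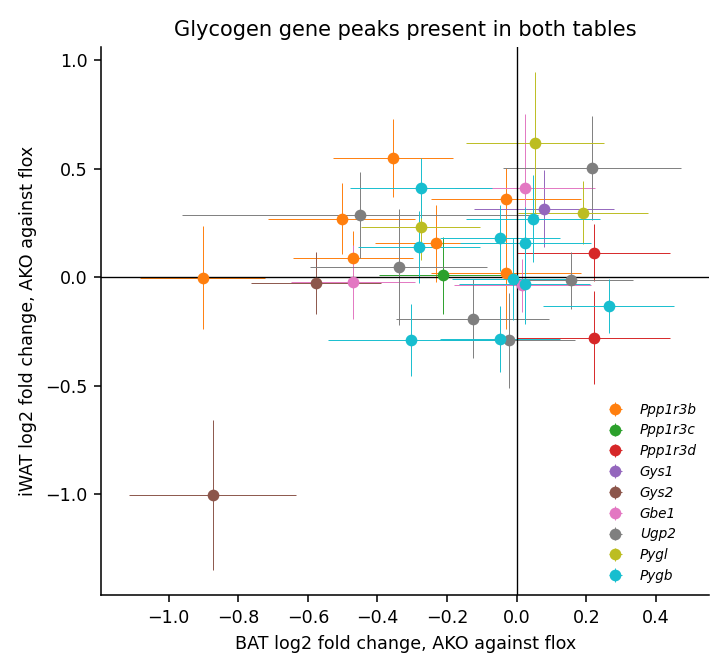
Log2 fold changes (AKO against flox) of the 35 pairs of overlapping glycogen gene peaks, BAT on the horizontal and iWAT on the vertical axis. Points are pairs, coloured by gene, and bars are SE from limma. In the upper left part, 13 pairs are below 0 in BAT and above 0 in iWAT (4 of the 19 pairs that share at least 50% of both peaks), and the point at the lower left is Gys2 intron 11 (−0.87 and −1.004).

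The 5 motifs searched were no more than a description of the windows of 300 bases around peak midpoints, read on both strands. PPAR response elements, as defined above, were in 19 of 64 BAT windows (29.7%, against 32.3% of all BAT windows) and in 16 of 41 iWAT windows (39.0%, against 28.5% of all). The C/EBP letters were in 13 BAT windows (20.3%, against 15.1% of all) and 6 iWAT windows (14.6%, against 13.97%). The EBF letters CCCNNGGG were in 10 (15.6%, against 18.7%) and 8 (19.5%, against 18.3%), and the NF1 letters, TGGC and GCCA 5 bases apart, in 1 BAT window and 0 iWAT windows. The cAMP response element TGACGTCA was in 0 windows of either tissue, against 0.695% and 0.963% of all windows.

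Of 33 other genes of the pathway and of glucose entry, 27 had peaks in BAT and 27 in iWAT. In BAT, 14 of their 99 peaks were lower and 7 higher in AKO without overlap (14.1% and 7.07%, against 8.84% and 8.77% of all BAT peaks), and the median log2 fold change was −0.05, with 54 of 99 below 0. The peaks with an unadjusted p under 0.05 and no overlap were at Gyg, the glycogenin that primes new glycogen (60.7 ± 10.4 in flox and 35.5 ± 3.28 in AKO), and at Pgm2, a phosphoglucomutase (303 ± 28.9 and 203 ± 14.3), both lower, and at Ppp1cb, a catalytic subunit of the phosphatase (95.7 ± 10.1 and 127 ± 10.7), and Nhlrc1, which encodes malin (179 ± 14.6 and 222 ± 6.53), both higher. In iWAT, 7 of 60 were lower and 3 higher without overlap (11.7% and 5%, against 10.3% and 10.6% of all iWAT peaks), with such peaks at Hk2, a hexokinase (26.2 ± 8.77 and 44.5 ± 8.39, higher), and Phkb, a phosphorylase kinase subunit (91.5 ± 16.9 and 68.0 ± 5.13, lower). None was called by limma.

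Adipocyte marker genes were lower in AKO BAT, as the glycogen genes were, and sums over all BAT peaks also ran lower, with overlap. Over the 49 peaks of the 7 adipocyte markers, the summed normalized reads ran from 21934 to 23328 in flox and from 15378 to 21033 in AKO mice (median log2 fold change −0.21, 18 peaks lower and 3 higher without overlap, or 36.7% and 6.12%, against 8.84% and 8.77% of all BAT peaks). Over the 73 peaks of the 7 brown adipocyte markers they ran from 21130 to 25226 in flox and from 14505 to 15960 in AKO mice (median −0.50, 30 lower and 0 higher, the former 41.1%). The glycogen gene peaks ran from 20499 to 22547 and from 16309 to 18809. The 27 endothelial peaks (5 of 5 markers) ran from 2391 to 2590 and from 2308 to 2681, and the 12 fibroblast peaks (5 of 5) from 1605 to 1691 and from 1550 to 1665. The sum over the 2 macrophage peaks (2 of 6 markers) ran from 351 to 409 in flox and from 421 to 495 in AKO, with log2 fold changes of −0.40 and 0.62 and overlap at both peaks. The sum over the 6 epithelial peaks (2 of 4) ran from 733 to 784 and from 696 to 730, although 5 of these peaks had a log2 fold change above 0. Ptprc and Cd68 of the macrophage list and Cd3e of the lymphocyte list had no peak in BAT. In iWAT, adipocyte markers ran from 3333 to 4144 in flox and from 3395 to 3804 in AKO aliquots, and brown adipocyte markers from 1577 to 1749 and from 1638 to 1774. Macrophage markers (5 of 6, from 410 to 465 in flox and from 314 to 393 in AKO) and endothelial markers (4 of 5, from 766 to 855 and from 671 to 740) were lower in sum in AKO iWAT without overlap, and the 1 lymphocyte marker with a peak was higher (from 60.0 to 74.9 and from 75.9 to 92.2). Single peaks went both ways. Of the 6 macrophage peaks in iWAT, 1 had a log2 fold change above 0 (0.32), and 2 were lower and 1 higher without overlap (33.3% and 16.7%, against 10.3% and 10.6% of all iWAT peaks). Of the 12 endothelial peaks, 3 were above 0 (up to 0.59), and 2 were lower and 0 higher without overlap (16.7% and 0%). The part of these markers in the glycogen gene values was not tested.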

How the data were processed

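ATAC-seq read out open chromatin in 12 samples, 6 of BAT and 6 of iWAT. The authors trimmed adapters, aligned reads to mm10 with BWA 0.7.17-r1188, removed duplicates with Picard 2.8.14, called broad peaks with MACS2 2.1.1.20160309 and counted reads per peak with bedtools 2.27.1 (versions from the submitters' processing notes). The deposited values are signal, that is, reads per peak that the authors divided by DESeq2 size factors, separately for each tissue, so no test crossed the tissues. The deposited fold changes and p-values of the authors' comparisons were not used.

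Multiplying by the size factors gave whole reads (tolerance 0.01). The main test was limma 3.58.1 on log2(normalized reads + 1) over all peaks of a table, with PC1 as a covariate in BAT, Benjamini-Hochberg adjustment and a threshold of 0.1. edgeR 4.0.16 and DESeq2 1.42.0 on the recovered reads, other scalings, filters and pseudocounts, a replicate block and leaving out each sample were alternatives. With 3 against 3 samples an exact permutation test cannot go below p = 0.1, so none was used. The scripts were tested on simulated data. There limma was fitted without a covariate, so the BAT fit with PC1 was not tested in this way. Table starts count from 0, and 1 was added. The peaks named were, per gene and tissue, the start site peak, the peak with the smallest p, and peaks with an unadjusted p under 0.05 and no overlap, with up to 6 such peaks of other pathway genes per tissue. Others named were chosen after their values were seen. The genes and lists were chosen with earlier results of these data known. Promoter and peak sequence was read from GRCm38.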

Additional observations from a re-analysis of the deposited data

Results flagged for a closer look

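At 2 of the 35 pairs of overlapping glycogen gene peaks the tissues went in opposite directions without overlap. Every AKO sample of BAT lay below every flox sample, and every AKO aliquot of iWAT above every flox aliquot. Over all genes, 1.47% of 31936 pairs were opposed without overlap, in this direction or the reverse. Only the Pygb pair shared at least 50% of both peaks, while the iWAT peak upstream of Ppp1r3b covers just a part of the wider BAT peak. Upstream of Ppp1r3b the log2 fold change was −0.36 in BAT and 0.55 in iWAT. In intron 14 of Pygb it was −0.27 in BAT and 0.41 in iWAT. The difference between tissues was not tested, since the tables were normalized separately and the iWAT samples are aliquots of 1 pool per genotype. Tissue, cold acclimation and sequencing instrument also cannot be told apart.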

How the results depend on the processing

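The number of glycogen gene peaks called was 0 with limma in both tissues under every alternative run with it, and 1 with DESeq2 in BAT and 1 with edgeR in iWAT. The BAT median log2 fold change (−0.05) was −0.16 without the PC1 covariate and −0.13 without AKO replicate 2 and without the covariate, an alternative chosen after seeing the data, and ran from −0.20 (without AKO replicate 1) to −0.045 when 1 sample was left out. The iWAT median (0.02) was −0.058 with a PC1 covariate, which separates the genotypes there, and ran from 0.014 to 0.092 (without AKO replicate 2). Peaks without overlap (17 in BAT, 9 in iWAT) were 13 and 14 in BAT and 8 and 7 in iWAT with total reads and cyclic loess. With 1 sample left out they ran from 20 to 29 in BAT (29 without flox replicate 3, of which 23 lower) and from 11 to 17 in iWAT, as fewer samples make overlap rarer, and were 5 in iWAT when peaks averaging under 50 normalized reads were left out. Of these alternatives, the share of all peaks was computed only for BAT without AKO replicate 2 (12.9% lower and 11.4% higher). In BAT, whole peaks in place of windows held the PPAR response element in 31 (48.4%, against 49.8% of all peaks) and EBF in 19 (29.7%, against 32.0%). They held C/EBP in 21 (32.8%, against 25.5%) and NF1 in 2 (3.1%, against 3.6%). In iWAT, whole peaks held the PPAR response element in 19 (46.3%, against 42.1% of all peaks) and EBF in 12 (29.3%, against 29.7%). They held C/EBP in 10 (24.4%, against 21.4%) and NF1 in 1 (2.4%, against 2.7%). Requiring an overlap of 50% of both peaks left 19 pairs, 4 below 0 in BAT and above 0 in iWAT and 4 the reverse.

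The labels do not say that a replicate number pairs samples, and the correlation of same-numbered samples was over 0.1 for 1 of 3 pairs in BAT and 0 of 3 in iWAT (correlations of 0.494, 0.0632 and −0.236 in BAT and −0.0387, −0.0497 and −0.0566 in iWAT). With the replicate block, without the PC1 covariate, the BAT median was −0.16, 0 glycogen gene peaks were called in either tissue, and 6 BAT peaks were lower and 3 higher at an unadjusted p under 0.05. The share of all peaks at that level was not computed under the block.

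Directions turned in BAT without the PC1 covariate, with the same values under the block, for the start sites of Gbe1 (−0.36), Gys1 (−0.36), Pygl (−0.14) and Ugp2 (−0.16), for Ppp1r3d (−0.18) and for Pygl intron 4 (0.018). Without AKO replicate 2 and the covariate they turned for Gbe1 (−0.15), Gys1 (−0.16) and Pygl (−0.020). The Gbe1 start site was also −0.055 with cyclic loess and −0.015 with total reads, and ran from −0.075 to 0.25 with 1 sample left out. A PC1 covariate in iWAT turned Gbe1 start (0.57) and intron 1 (0.37), Gys1 (−1.90), Ppp1r3b 169 kb upstream (−0.51) and start (−0.53), Ppp1r3d exon 1 (0.42), Pygb start (0.49), intron 14 (−0.27) and downstream (1.22), and Ugp2 start (0.80). With 1 aliquot left out, start sites in iWAT ran from −0.093 to 0.076 for Gys2, from −0.14 to 0.10 for Ppp1r3c and from −0.082 to 0.050 for Ugp2. The cause was not tested. With 3 samples a group, and aliquots in iWAT, no peak of any gene passed limma's threshold. This includes the BAT peak of the targeted Smarcd1 (log2 fold change −2.98, limma adjusted p = 0.269).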
